A study of Mus musculus with 2 samples.

Results

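The 10 genes described here encode proteins that neutrophils store in granules or in their cytosol: Mpo, Elane, Prtn3, Ctsg, Camp, Ngp, Ltf, Lcn2, S100a8 and S100a9. They were taken by name and not by a threshold on a measured value, though with earlier results of these data known, from the 21938 protein-coding genes of the annotation. The data are peaks of H3K27ac, an acetylation of histone H3 found at active promoters and enhancers, in unstimulated primary macrophages that were derived from C57BL/6J bone marrow. There was a single group of 2 biological replicates, each started from 10 ng of DNA and each from its own biosample, and both carry the same donor entry, so the spread between them may leave out differences between animals. No other genotype, treatment or time was labelled, and age, sex and stage were not given. Replicate 1 had 29543 peaks and replicate 2 had 29345 (29444 ± 140, SD, n = 2); the read depth is not given in the sources used here. A region without a peak is one the authors did not call, which does not show that acetylation was absent there, and weak signal in many cells cannot be told apart from strong signal in few cells. For the labelled cell type, 10 macrophage markers were listed (Adgre1, Cd14, Cd68, Csf1r, Fcgr1, Itgam, Lyz2, Mertk, Mrc1 and Spi1). All 10 had promoter peaks in both replicates, beside 39.4% of all protein-coding genes. That list was chosen with earlier results of these data known, and Itgam, Lyz2 and Spi1 are also genes of the neutrophil lists used further on, so the count describes the libraries and does not establish the identity of the cells.

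Neutrophils make their granules in sequence while they mature in the bone marrow. The azurophil granules come first and hold the peroxidase Mpo and the serine proteases Elane, Prtn3 and Ctsg. The specific granules follow and hold Camp, the cathelicidin antimicrobial peptide, Ngp, a relative of cathelicidins, and the iron-binding and siderophore-binding proteins Ltf and Lcn2. S100a8 and S100a9 form calprotectin, a calcium- and metal-binding dimer of the cytosol. Macrophages and neutrophils descend from a shared myeloid progenitor, and some of these genes, Lcn2 above all, are also known to be induced in stimulated macrophages.

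A peak at the promoter, meaning a peak that overlaps the 1 kb on either side of any annotated start, was found in both replicates for 1 of the 10 genes, Prtn3. The share over all protein-coding genes was 39.4%. The other 9 genes had no promoter peak in either replicate. List by list, 1 member had a promoter peak in replicate 1 (40.5% of all genes) and 1 in replicate 2 (41.6%), and 2 had one in the replicated list (43.8%) and in the pooled list (43.9%), which the authors made from both libraries. Ltf was the second. Prtn3 was also the only member with a peak over its gene body in both replicates, against 41.6% of all protein-coding genes, while Ltf had one in replicate 2 alone. Within 25 kb of the gene body, 7 of 10 members had a peak in both replicates, against 60.7% of all protein-coding genes, so the surroundings of the members held peaks about as often as those of other genes. Over the gene body the count was 1 in replicate 1 (42.8% of all genes), 2 in replicate 2 (44.2%), 2 in the replicated list (46.5%) and 2 in the pooled list (46.8%). Within 25 kb it was 7 in each list, where the share of all genes was 61.8% in replicate 1, 62.7% in replicate 2, 64.8% in the replicated list and 64.9% in the pooled list. The 3 members without any peak in that region were Mpo, S100a8 and S100a9, in both replicates.

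**Figure D1:**
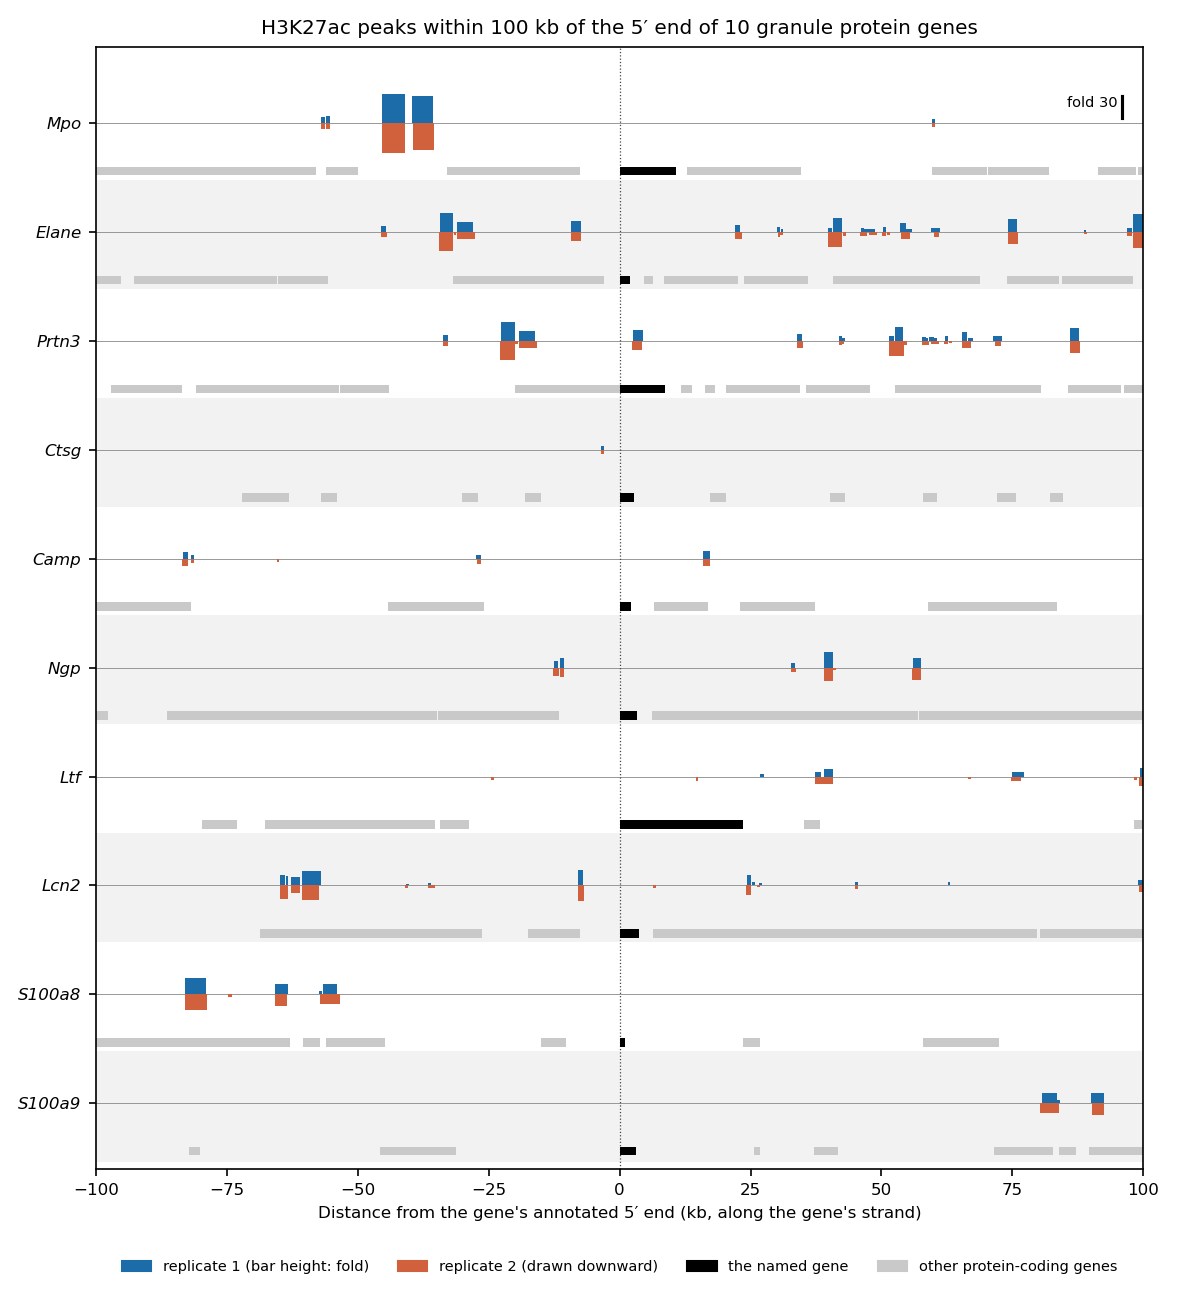
Peaks within 100 kb of the annotated 5′ end of each gene, drawn along the gene's own strand (x axis, kb). Bars above the line are peaks of replicate 1 and bars below it are peaks of replicate 2, with height in proportion to the deposited fold (scale bar: fold 30); black boxes are the named gene and grey boxes other protein-coding genes. The Prtn3 row alone has a bar of both replicates within the black box, and the tall bars of the Mpo row lie more than 35 kb upstream.

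The sequences under the members' own peaks and at 4 of their promoters are shown first, since the results on words refer to them. The 3 peak sequences are 300 bases around the summit in the authors' replicated list, on GRCm38 patch 6 and along the strand of the gene. They lie at chr10:79878042-79878341 (forward strand), chr14:56105703-56106002 (reverse strand) and chr9:111033905-111034204 (forward strand). Capitals mark matches to any of 7 short words read on both strands, which are named with the results on words.
Prtn3 intron peak: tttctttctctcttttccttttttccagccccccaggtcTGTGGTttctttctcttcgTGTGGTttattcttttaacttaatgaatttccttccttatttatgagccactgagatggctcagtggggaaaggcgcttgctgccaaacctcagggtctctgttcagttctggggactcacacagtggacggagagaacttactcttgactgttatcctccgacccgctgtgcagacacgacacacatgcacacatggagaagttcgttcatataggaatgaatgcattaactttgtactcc
Ctsg upstream peak: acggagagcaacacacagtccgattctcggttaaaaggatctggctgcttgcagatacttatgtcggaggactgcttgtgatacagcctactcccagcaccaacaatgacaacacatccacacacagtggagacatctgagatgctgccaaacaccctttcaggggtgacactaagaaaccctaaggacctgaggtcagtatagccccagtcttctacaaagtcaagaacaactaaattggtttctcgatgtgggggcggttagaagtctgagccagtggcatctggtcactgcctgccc
Ltf intron peak: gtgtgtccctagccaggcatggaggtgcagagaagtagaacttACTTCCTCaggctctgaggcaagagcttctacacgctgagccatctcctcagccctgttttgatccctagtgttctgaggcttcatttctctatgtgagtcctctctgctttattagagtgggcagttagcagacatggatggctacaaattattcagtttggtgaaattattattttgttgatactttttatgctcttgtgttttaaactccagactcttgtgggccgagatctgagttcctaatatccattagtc

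The promoters, from RefSeq on GRCm38.p6, run from 250 bases before to 50 bases after the start. They are given for the azurophil genes Mpo (chr11:87793534-87793833), Elane (chr10:79886062-79886361) and Prtn3 (chr10:79879417-79879716) and for S100a8 (chr3:90668821-90669120), all on the forward strand, since these are the 4 member promoters that hold the PU.1 word described with the word counts.
Mpo promoter: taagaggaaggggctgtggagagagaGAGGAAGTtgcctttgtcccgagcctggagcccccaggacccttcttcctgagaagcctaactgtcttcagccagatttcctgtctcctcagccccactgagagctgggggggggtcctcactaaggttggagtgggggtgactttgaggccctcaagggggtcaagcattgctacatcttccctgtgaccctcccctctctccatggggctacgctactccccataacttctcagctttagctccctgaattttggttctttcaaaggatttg
Elane promoter: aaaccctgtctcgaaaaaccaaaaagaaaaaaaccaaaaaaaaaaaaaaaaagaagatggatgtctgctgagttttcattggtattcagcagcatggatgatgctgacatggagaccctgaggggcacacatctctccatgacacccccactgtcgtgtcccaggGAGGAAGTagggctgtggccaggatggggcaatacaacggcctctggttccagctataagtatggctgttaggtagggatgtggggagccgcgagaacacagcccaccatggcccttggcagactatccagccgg
Prtn3 promoter: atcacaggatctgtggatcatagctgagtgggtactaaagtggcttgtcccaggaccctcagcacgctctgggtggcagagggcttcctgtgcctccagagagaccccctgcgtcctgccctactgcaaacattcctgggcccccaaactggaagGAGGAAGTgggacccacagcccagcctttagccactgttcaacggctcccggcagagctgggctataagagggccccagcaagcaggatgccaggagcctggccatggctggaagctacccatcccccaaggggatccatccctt
S100a8 promoter: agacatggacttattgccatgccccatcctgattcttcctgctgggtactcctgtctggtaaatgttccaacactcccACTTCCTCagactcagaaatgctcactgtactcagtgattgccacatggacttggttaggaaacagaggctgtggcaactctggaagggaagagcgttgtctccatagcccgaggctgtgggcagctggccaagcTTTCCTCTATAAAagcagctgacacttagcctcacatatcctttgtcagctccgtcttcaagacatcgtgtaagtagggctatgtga

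Prtn3, which encodes proteinase 3, lies on the forward strand of chromosome 10, from 79874476 to 79883174. Its peak ran from 79876975 to 79878957 in replicate 1, with a fold of 15.7 and rank 4951 of 29543, and from 79876917 to 79878827 in replicate 2, with a fold of 12.7 and rank 7108 of 29345. It thus stood in the top 16.8% and 24.2% of its lists (20.5% ± 5.28, SD, n = 2). The peak lies in an intron of a longer noncoding transcript that begins at 79874476, and upstream of the first protein-coding start at 79879614. Its near edge was 657 and 787 bp from that start and its summit 1419 and 1352 bp, so it reached into the promoter window with its edge and not with its summit. The most upstream start of Prtn3 lies 68 bp from a start of Plppr3, a neighbour on the other strand, and neither that shared region nor Plppr3 had a promoter peak in either replicate. The Prtn3 peak overlapped the start window of no other protein-coding gene.

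Elane, which encodes neutrophil elastase, is the next gene downstream (79886247 to 79888215 of chromosome 10, forward strand). It had no promoter peak and no peak over its body, and its nearest peak was the Prtn3 peak, 7290 bp upstream in replicate 1 and 7420 bp in replicate 2. The members of this pair of neighbouring proteases therefore differed in both replicates in whether a peak reached the promoter window. The next peak beyond Elane was that of Med16, a subunit of the Mediator complex, with folds of 9.98 and 9.22. Between the Prtn3 and Med16 peaks there was no peak over 29.4 kb in replicate 1 and 29.5 kb in replicate 2, a stretch that also holds Cfd, which encodes complement factor D and had no promoter peak.

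Ctsg, which encodes cathepsin G, lies in a cluster of mast cell protease and granzyme genes (56099881 to 56102574 of chromosome 14, reverse strand). It had no promoter peak, but both replicates had a small peak upstream of it in sequence between genes, at 56105659 to 56106125 with a fold of 5.51 in replicate 1 and at 56105603 to 56106142 with a fold of 5.32 in replicate 2. The near edge was 3085 and 3029 bp from the start, and Ctsg is the gene with the nearest start. The peak ranked 18609 of 29543 and 19410 of 29345, in the lower part of both lists. It stood alone: the next peak was 468.6 kb upstream and 218.5 kb downstream in replicate 1, and 468.9 and 218.6 kb in replicate 2. Of all peaks, 1.03% in each replicate were at least as far from their nearest neighbour, and the median peak had a neighbour within 1.19 kb in replicate 1 and 1.55 kb in replicate 2. Mcpt8, a protease gene of basophils, and Gzme, a granzyme gene, have starts within 25 kb of Ctsg and had no promoter peak. None of the 300 bases around the summit is repeat sequence in the reference, where repeats are given in lower case.

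Mpo, which encodes myeloperoxidase, lies on the forward strand of chromosome 11, from 87793581 to 87804413. No peak of either replicate lay within 25 kb of it. The nearest was 35577 bp upstream in replicate 1 and 35536 bp upstream in replicate 2, and in both it was among the highest peaks, with folds of 37.0 and 36.4 and ranks 316 of 29543 and 392 of 29345. The pooled list had the same peak nearest (fold 39.8, rank 330 of 32909), but in the replicated list the nearest peak was a weak one from 87758147 to 87758505, 35076 bp upstream, with a fold of 2.97 and rank 30217 of 32877. The gene of any type with the nearest start to the high peak was Mir142hg, the host of the blood cell microRNA miR-142, at 420 and 481 bp, and the protein-coding gene with the nearest start was Tspoap1, at 4544 and 4483 bp. Tspoap1 itself and Lpo, the lactoperoxidase gene next to Mpo, had no promoter peak. Mpo thus lay in a peak-free stretch of 95.3 kb in replicate 1 and 95.2 kb in replicate 2. Such a stretch is not unusual, since 52.6% and 51.0% of protein-coding genes had their 5′ end in one at least as long.

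Of the specific granule genes, Camp and Ngp had their nearest peak at the promoter of a neighbour. Camp (109847379 to 109849617 of chromosome 9, reverse strand) had its nearest peak 16003 bp downstream of its start in replicate 1 and 15948 bp in replicate 2, centred within 39 bp of the nearest start of Nme6, a nucleoside diphosphate kinase gene (folds 10.8 and 10.4, ranks 8663 and 9366). Ngp (110419747 to 110423012 of chromosome 9, forward strand) had its nearest peak 10716 and 10685 bp upstream, at the start of Ptpn23, a phosphatase gene of the endosomal sorting pathway (folds 13.2 and 12.4, ranks 6507 and 7374). A second Ptpn23 peak, with folds of 9.12 and 11.4, completed the peaks within 25 kb of Ngp. All of these were present in both replicates.

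Ltf, which encodes lactoferrin, differed between the lists in which peaks were called and how far they were. It lies on the forward strand of chromosome 9, from 111019271 to 111042767, and has 10 annotated starts. In replicate 2 a peak lay in a Ltf intron at 111033877 to 111034250, with a fold of 5.53 and rank 18433 of 29345, and replicate 1 had no peak there. In replicate 1 the nearest peak was a weak peak beyond the gene's 3′ end (111046092 to 111046910, fold 3.79, rank 26022 of 29543) that replicate 2 lacked. The replicated list, made from both libraries, held a counterpart of each and a further intronic peak at 111034941 to 111035771 over an internal start at 111035639, with a fold of 3.25 and rank 28449 of 32877. The start of the full-length gene was far from all of them: the nearest peak to the 5′ end was 26821 bp downstream in replicate 1 and 14606 bp in replicate 2. The highest peak of the region was at Ccrl2, an atypical chemokine receptor gene, with folds of 10.3 and 9.72.

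Lcn2, which encodes lipocalin 2, had no promoter peak and no peak over its body (32384633 to 32388252 of chromosome 2, reverse strand). In both replicates a high peak lay at the start of Ptges2, a prostaglandin E synthase gene that begins 7644 bp from the 5′ end of Lcn2, with folds of 21.3 and 21.3 and ranks 2633 and 2788. It was the nearest peak in replicate 1, at 6929 bp from the 5′ end. In replicate 2 a weak peak at the start of 1110008P14Rik (fold 3.69, rank 26187 of 29345) was nearer. That peak was 4201 bp from an internal start of Lcn2 and 6454 bp from its 5′ end. The rank of the nearest peak thus went from the top 8.91% of the list to 89.2%. At the far side of the region the promoter of Ciz1, a DNA replication factor gene, had folds of 14.5 and 13.4. Lcn2 was therefore without a peak between acetylated promoters on both sides.

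S100a8 (90668978 to 90670035 of chromosome 3, forward strand) and S100a9 (90692632 to 90695721, reverse strand) were the members farthest from any peak. The nearest peak was the same for both and stood at the start of S100a6, a relative in the same gene cluster, with folds of 14.3 and 13.2. It was 53966 and 53473 bp from S100a8, and 80699 and 80206 bp from S100a9. Both genes lay in a stretch without peaks of 429.0 kb in replicate 1 and 428.7 kb in replicate 2. This stretch held the 5′ ends of 5 protein-coding genes, S100a7a, S100a8, S100a9, Pglyrp4 and Gm5849, and 30.1% and 29.3% of all protein-coding genes had their 5′ end in a stretch at least as long. Of the 10 other S100a genes within 1 Mb of S100a8, 6 had a promoter peak in both replicates (60%, beside 39.4% of all protein-coding genes). They were S100a2 and S100a3, which shared a peak (22.4 and 22.3), S100a4 (14.6 and 16.6), S100a6, and S100a1 and S100a13, which shared a peak (6.88 and 8.88). S100a5, S100a7a, S100a14 and S100a16 had none.

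**Figure D2:**
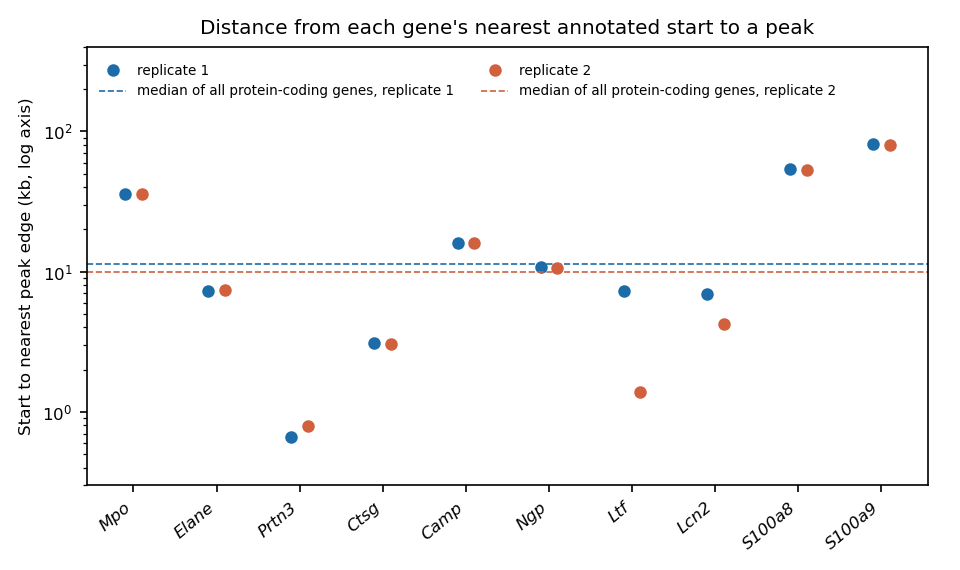
Distance from the nearest annotated start of each gene to the near edge of the nearest peak (y axis, kb, log scale) in each replicate. Dashed lines are the medians over all protein-coding genes; Prtn3 lies lowest, S100a8 and S100a9 highest, and the replicates are well apart for Ltf and Lcn2 alone.

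The distances put the members near the middle of all genes. The median distance to the nearest peak was 9003 bp in replicate 1 and 9052.5 bp in replicate 2 for the 10 members, against 11414 and 9919.5 bp for all 21938 genes and 61610 and 58889 bp for the 13305 genes without a promoter peak in both replicates. Those nearest peaks mostly belonged to other genes. For 3 of 10 members (Prtn3, Ctsg and Ltf) the protein-coding gene with the start nearest to the peak was the member itself in both replicates, against 42.2% of all protein-coding genes (44.2% in replicate 1 and 44.9% in replicate 2, each with the same 3 members). For Ltf these were different peaks in each replicate, and with genes of every type counted Ltf dropped out.

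The neighbours of the members were acetylated at about the usual rate. Of the 18 other protein-coding genes with a start within 25 kb of a member, promoter peaks in both replicates were found for 9 (50%), beside 39.4% of all protein-coding genes. They neighbour 6 of the 10 members: Elane and Prtn3 (Ptbp1, a splicing regulator gene, 26.8 and 25.6; Med16), Elane (R3hdm4, 6.37 and 6.20), Camp (Nme6), Ngp (Ptpn23; Klhl18, 13.6 and 17.3), Ltf (Ccrl2) and Lcn2 (Ptges2 and Ciz1). These neighbours are counted by their starts, and some of the peaks lay more than 25 kb from the member: those of Ptbp1 and R3hdm4 for Elane, of Med16 for Prtn3 and of Klhl18 for Ngp. The regions of the members held 15 different peaks in replicate 1, of which 13 overlapped a peak of replicate 2, and 16 in replicate 2, of which 12 overlapped a peak of replicate 1. Of these peaks, 3 in each replicate were closest to a start of a member, and 11 in each overlapped the promoter window of a neighbour. The peaks of a single replicate were weak, with a highest fold of 4.65 in replicate 1 and 5.53 in replicate 2.

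Most of the members have promoters poor in CpG, the dinucleotide that is dense at many broadly used promoters. The CpG ratio, observed over expected in 300 bases at the most upstream protein-coding start, had a median of 0.175 over the 10 members, from 0.1 for Lcn2 to 0.464 for Ctsg. Of the 10, 7 lay below the first quartile of all protein-coding genes, 0.213, while Elane (0.237), Ngp (0.292) and Ctsg lay above it. Which members these are depends on the start used. In the RefSeq promoters the ratio was 0.156 for Ngp and 0.214 for S100a8, and the other members stayed on their side of 0.213. The median was 0.537 over all protein-coding genes, 0.766 for genes with a promoter peak in both replicates and 0.326 for the rest. Of the 9898 genes with a ratio at or below that of Ctsg, 16.7% had a promoter peak in both replicates, against 58.0% of the 12040 genes above it. The bound is that of the member with the highest ratio, and whether CpG content has a part in the members' count was not tested. Prtn3, with a ratio of 0.199, did not stand apart from the other members. Their GC content was 47.7 to 58.3%, with a median of 51.5%, against 55.3% over all genes.

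**Figure D3:**
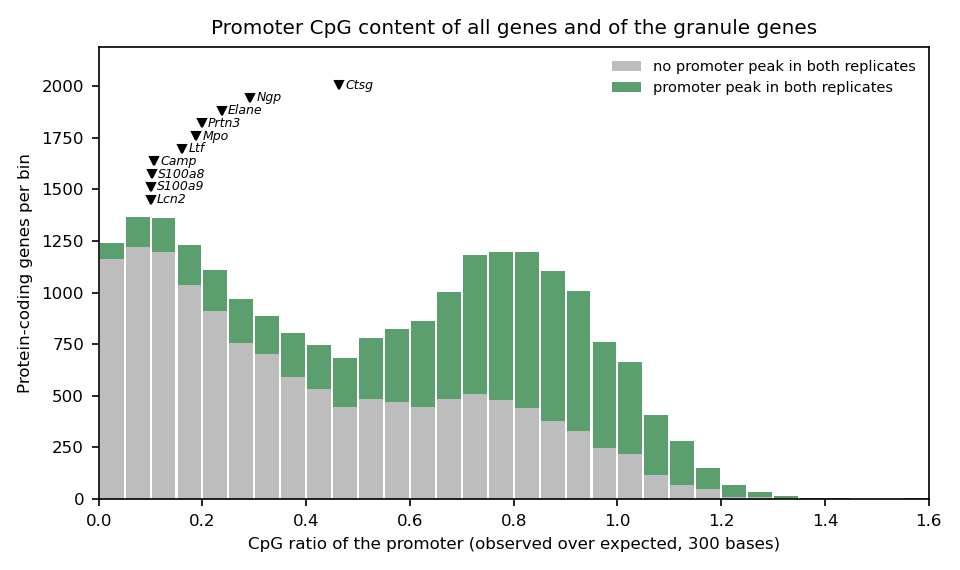
Number of protein-coding genes (y axis) by CpG ratio of the promoter (x axis, bins of 0.05), split by whether both replicates had a promoter peak. Triangles give the ratio of each granule gene; all 10 lie at 0.464 or below, where most genes are grey.

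Short words recognised by myeloid transcription factors were counted in the 300-base RefSeq promoters, which the table held for 10 of 10 members. The PU.1 word GAGGAAGT was found in 4 of 10, those of Mpo, Elane, Prtn3 and S100a8, and in 3.2% of 32841 promoters. Those 32841 are the RefSeq promoters searched, a set other than the 21938 protein-coding genes used elsewhere. In Prtn3 it begins 95 bases and in Elane 85 bases before the RefSeq start, both on the strand of the gene, and these neighbouring genes are related in sequence, so they are not independent cases. In Mpo it begins 224 bases before the RefSeq start, and in S100a8 172 bases before that gene's RefSeq start, on the other strand. The RefSeq start of Mpo lies downstream of the annotated 5′ end from which its peak distances were taken. The C/EBP word TTGCNNAA was found in 4 members (Ngp, Ltf, Lcn2 and S100a9), against 10.8% of promoters, and its stricter form TTGCGCAA, which it includes, in 0 of 10, against 0.183%. The RUNX word TGTGGT was in 3 members (16.8% of promoters), the TATA box word TATAAA in 3 (13.6%), a second PU.1-type word TTTCCTC, which shares 6 letters with the first when read on the other strand, in 2 (9.01%), and the AP-1 word TGACTCA in 0 (5.2%). A window of 500 bases on either side of the 5′ end was also searched. In it TGTGGT was in 5 members, TTGCNNAA in 5, TTTCCTC in 4, TATAAA in 4 and GAGGAAGT in 3. It is longer, and for Prtn3 it is centred on the noncoding transcript's start and not on the RefSeq promoter. No share over all promoters was computed for it, so these counts stand without a background. The TATAAA of S100a8 begins 30 bases before the start and directly follows its TTTCCTC.

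The same words were searched around the summits of the members' own peaks. The Prtn3 peak held TGTGGT at 2 places, beginning at bases 40 and 59 of the printed sequence, a word found around 19.8% of the 32877 summits of the replicated list. The Ltf intron peak held GAGGAAGT on the other strand, beginning at base 44, a word found around 2.64% of summits. The Ctsg peak held none of the 7 words. Of the bases printed, 34.7% of the Prtn3 peak and 17.7% of the Ltf peak are repeats, beside a median of 8.33% over all summits of that list. A match is a match of letters and was not tested as a binding site.

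Other genes of the neutrophil programme were acetylated unevenly. Both replicates had a promoter peak for 14 of 33 further genes (42.4%), near the 39.4% of all protein-coding genes, and 19 had none in either. The list covers granules and granulopoiesis, the formation of granulocytes, so not every gene in it need encode a granule protein. Among the 14, Mmp8 had weak promoter peaks (folds 4.47 and 2.80), and those of the replicates do not overlap. With a −log10 q of at least 5 the count was 13. The highest in the replicated list were Adam8, a surface protease (28.4 and 30.2), Ifitm6, an interferon-induced type membrane protein gene (31.1 and 32.5), Ctsc, which activates the granule serine proteases (30.1 and 30.5), and Cyba, a subunit of the phagocyte NADPH oxidase (26.3 and 33.7). These are known to be made by macrophages as well, and 2 genes of the list, Itgam and Lyz2, are also among the macrophage markers. Bpi, a bactericidal protein gene, Cd177, a neutrophil surface protein gene, and the chitinase-like genes Chil1 and Chil3 had no promoter peak. The median distance to a peak over the 33 genes was 6481 and 6467 bp, beside 9003 and 9052.5 bp for the 10 members.

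Regulators of granulocyte development carried promoter peaks more often than the members or the further granule and granulopoiesis genes did. The count was 12 of 18 (66.7%, beside 39.4% of all protein-coding genes), and no test was made of that difference. The highest in the replicated list were Spi1, which encodes PU.1 (50.8 and 50.3), Cebpd, a C/EBP factor gene (31.7 and 30.8), Rara, the retinoic acid receptor alpha gene (9.46 and 26.5), and Runx1 (29.1 and 21.8). For Rara and for Runx1 the highest promoter peaks of the replicates do not overlap. Spi1 is also among the macrophage markers, and Csf3r is both in this list and among the neutrophil markers. Cebpe, the C/EBP factor known for driving specific granule genes, named here outside the rule after its values were seen, had folds of 6.71 and 8.38 (ranks 15242 and 12141). Csf3, Gfi1, Klf5, Lef1 and Myb had no promoter peak in any replicate, and Cebpb had one in the replicated list alone. In the replicates the nearest Cebpb peak was 1141 and 1143 bp from its start, just outside the window of 1 kb. With a window of 2.5 kb the count of regulators was 13. Of 5 markers of mature neutrophils, Csf3r, the granulocyte colony-stimulating factor receptor gene, had a promoter peak (16.2 and 16.9), and Cxcr1, Cxcr2, Ly6g and Retnlg had none in either replicate. Retnlg is also among the further granule and granulopoiesis genes, so it is counted in both lists. Whether neutrophils in the cultures had a part in any of these peaks was not tested.

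**Figure D4:**
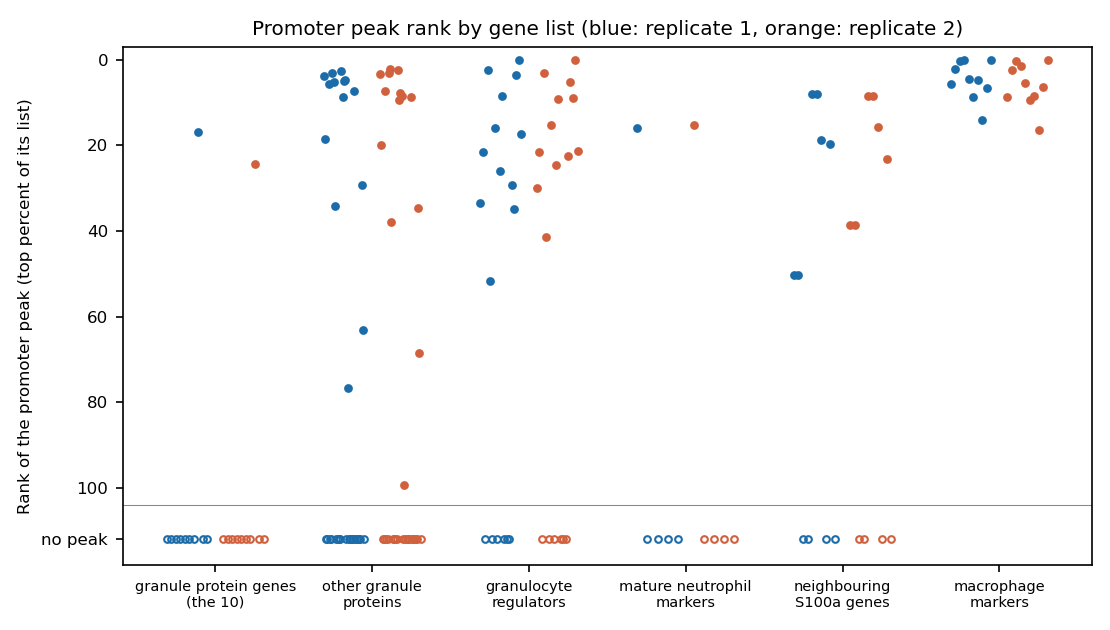
Rank of the highest promoter peak of each gene, as the top percent of its list (y axis, 0 at the top is the highest fold), for 6 gene lists and both replicates; open circles at the bottom are genes without a promoter peak. In the first column 1 gene, Prtn3, has a rank (16.8 and 24.2%), while all 10 macrophage markers have one.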

How the data were processed

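H3K27ac peaks of 2 replicates were read from 4 lists on mm10. Each library has a list called from its own alignments; the replicated and pooled lists come from both libraries' alignments, per the text files the authors deposited. The fold of each peak is a ratio deposited by the authors, taken here as enrichment over control or background, with a denominator that the lists do not state, and its q-value was deposited on a −log10 scale; folds were used to rank and describe peaks within a list. The aligner, the peak caller and the depth are not given in the sources used here. Positions are 1-based, on GRCm38 patch 6 with GENCODE release M21, without mitochondrial genes.

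A peak was counted where it overlapped a window by at least 1 bp: 1 kb either side of any annotated start, the gene body, or the body plus 25 kb. A nearest peak was given to the protein-coding gene with the start closest to its midpoint. Interval functions were checked on simulated data. A single group allows no contrast, so no test was made, and counts stand beside the share over all protein-coding genes. Words were searched in RefSeq promoters (10 of 10 matched) and in 300 bases around summits. Genes outside the 10 were named by a rule: owners of nearest peaks, neighbours with promoter peaks, and from each list the 4 highest with a peak and the first 4 in alphabetical order without one, and all markers. Neighbours without a peak, Mir142hg, R3hdm4, Klhl18, Mmp8, Lef1 and Myb were named outside it, after their values were seen. The 10 genes and the lists were chosen with earlier results of these data known. Python 3.11.15, pandas 2.3.3 and pysam 0.24.0 were used.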

Additional observations from a re-analysis of the deposited data

How the results depend on the processing

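The count of members with a promoter peak in both replicates rests on the near edge of the Prtn3 peak. It was 1 in the main setting, 0 with a window of 500 bp and 0 with the 5′ end alone, which for Prtn3 is the start of a noncoding transcript. It was 2 in the replicated list and 2 in the pooled list, where Ltf joined through a weak peak at an internal start. It stayed at 1 with a window of 2.5 kb, with a −log10 q of at least 5, with the 20000 highest peaks, and without peaks that other genes share; leaving out a replicate gave 1 to 1. The count with a peak over the gene body was 1, with 2 in the replicated list, 2 in the pooled list, and 1 to 2 when a replicate was left out, the 2 coming without replicate 1. The count with a peak within 25 kb was 7, and 5 to 8 with 10 and 50 kb. No share over all protein-coding genes was computed for the other windows, the 5′ end alone or the peak cutoffs. The counts at those settings, also those of the other gene lists, therefore stand without a background. Counts were taken as unmoved within 1.5 times the main count, so 7 to 5 and 3 to 2 are unmoved while 1 to 2 is not, and the CpG median within the SD over members. By that measure 36 alternatives for these and the other counts and for CpG content left the value unmoved and 7 moved it. Word counts were also taken with 500 bases on either side of the 5′ end, a longer window without a share over all promoters. There TGTGGT went from 3 to 5 members, TTTCCTC from 2 to 4 and GAGGAAGT from 4 to 3. TTGCNNAA went from 4 to 5 and TATAAA from 3 to 4. The depth is not known, so peaks below the authors' threshold cannot be judged.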

Other observations

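Markers of other granulocytes were looked at in the same way. Of 6 mast cell and basophil genes (Cma1, Cpa3, Fcer1a, Kit, Mcpt4 and Mcpt8), 0 had a promoter peak in either replicate. Of 6 eosinophil genes 1 had one in both replicates: Siglecf, with folds of 11.1 and 10.7, while Ear1, Ear2, Ear6, Epx and Prg2 had none. The share over all protein-coding genes was 39.4%.

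The genes with promoter peaks closest in rank to that of Prtn3 over the 2 replicates were Eif1a and Tmed7, each at ranks 4774 and 7091 beside 4951 and 7108 for Prtn3, a summed difference of 194 ranks. This describes position in the lists only.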
